A study of Homo sapiens with 12 samples.

Results

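Tamoxifen given for 1 h to T47D cells in complete medium was compared with vehicle by PRO-seq, which sequences the RNA held by engaged polymerases and so reads transcription as it happens. T47D is a human breast cancer line that carries estrogen receptor alpha. The comparison used 4 of the series' 12 libraries, taken by their labels: 2 with 100 nM tamoxifen and 2 with vehicle (0.1% DMSO by volume), all after 3 days in complete medium, RPMI 1640 with fetal bovine serum. Such serum carries steroid hormones, at concentrations not given in the sources used here. The other 8 libraries, 2 per group, were 100 nM raloxifene and 100 nM fulvestrant for 1 h in the same medium, and 1 nM estradiol or vehicle for 1 h in hormone-starved cells. All libraries come from 1 cell line, and the labels do not say that the libraries of a group were separate cultures, so each p-value measures only the spread between libraries, which may be technical.

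Estrogen receptor alpha is a transcription factor that binds estradiol, settles on DNA at estrogen response elements, often in enhancers far from the genes it acts on, and draws in coactivators. Tamoxifen is a triphenylethylene that binds the same pocket and turns the last helix of the ligand-binding domain so that corepressors rather than coactivators are recruited. It is a selective modulator, an antagonist in breast and a partial agonist in uterus and bone, and much of its action in patients comes from hydroxylated metabolites made in the liver. Raloxifene, a benzothiophene, is another selective modulator. Fulvestrant is a steroid related to estradiol with a long side chain, a full antagonist that also leads to degradation of the receptor.

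Tamoxifen libraries 3 and 4 held 7393181 and 6055972 counts, against 6344474 and 4981796 counts in vehicle libraries 3 and 4, and the whole series ran between 3682311 and 7856803. Of 59410 genes, 23375 passed a filter on low counts and were tested. A chi-square over genes between the libraries of a group came to 2.16 per gene for tamoxifen and 1.32 for vehicle, so neither pair agreed within sampling noise. Of 8055 genes with a mean of at least 200 counts, 32 differed by more than 0.5 on the log2 scale between the tamoxifen libraries and 10 between the vehicle libraries. The defining luminal markers were present: 16 luminal epithelial genes summed to between 11220 and 11707 CPM (counts scaled by library size) with tamoxifen and between 11977 and 12028 CPM with vehicle. Basal and mesenchymal markers summed to between 43.8 and 43.9 CPM with tamoxifen and 44.2 to 47.8 CPM with vehicle, over 11 genes. Stromal, endothelial and blood markers summed to 49.2 to 55.1 CPM with tamoxifen and 46.0 to 50.001 CPM with vehicle, over 14 genes, of which HBB was at 0 in all 4 libraries. TRPS1 had the most counts of the 16 luminal genes (39019 and 34491 with tamoxifen, 35204 and 28256 with vehicle) and so weighed most in their sum. None of the 16 was called with tamoxifen. The lower luminal sum with tamoxifen moved in the same direction as the genes described next, and its part in the results was not tested. PRO-seq counts are relative to each library's total, so fewer cells of a type and less nascent RNA per cell cannot be told apart.

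After 1 h, few genes changed past the threshold with tamoxifen in the main edgeR fit, and those that did moved by less than 2-fold. With tamoxifen 11 genes were lower and 1 was higher than with vehicle at an adjusted p under 0.05, which is 0.0471% and 0.00428% of the 23375 genes tested. The lower genes, between 17.3% and 37.3% below vehicle, were the transcription factor genes RUNX1 and MYBL1, the carbonic anhydrase gene CA12, the galactosyltransferase gene B4GALT1, the cytokine receptor subunit gene IL6ST, the secreted olfactomedin gene OLFM1, the pseudokinase scaffold gene PRAG1, the formin gene FMN1, the tyrosine phosphatase gene PTP4A2, the antisense RNA gene RMDN2-AS1, and ENSG00000254024, which has no symbol. The gene that rose was ABCC5, which encodes an efflux transporter of cyclic nucleotides and organic anions. At an unadjusted p under 0.05 there were 799 lower and 731 higher genes, and the median log2 fold change over all genes was 0.005. Some other fits gave more calls. A replicate block, with library number added to the model, gave 114 lower and 58 higher genes, though no label ties these numbers to a batch. DESeq2 gave 20 lower and 1 higher, and leaving out the low-count filter gave 69 and 24. The counts also changed when single libraries were left out. Without vehicle library 3 there were 0 lower and 0 higher genes in edgeR (666 and 687 at an unadjusted p under 0.05), and without vehicle library 4 there were 5 and 0. Without tamoxifen library 3 the counts were 2 lower and 0 higher, and without tamoxifen library 4 they were 13 and 0.

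**Figure D1:**
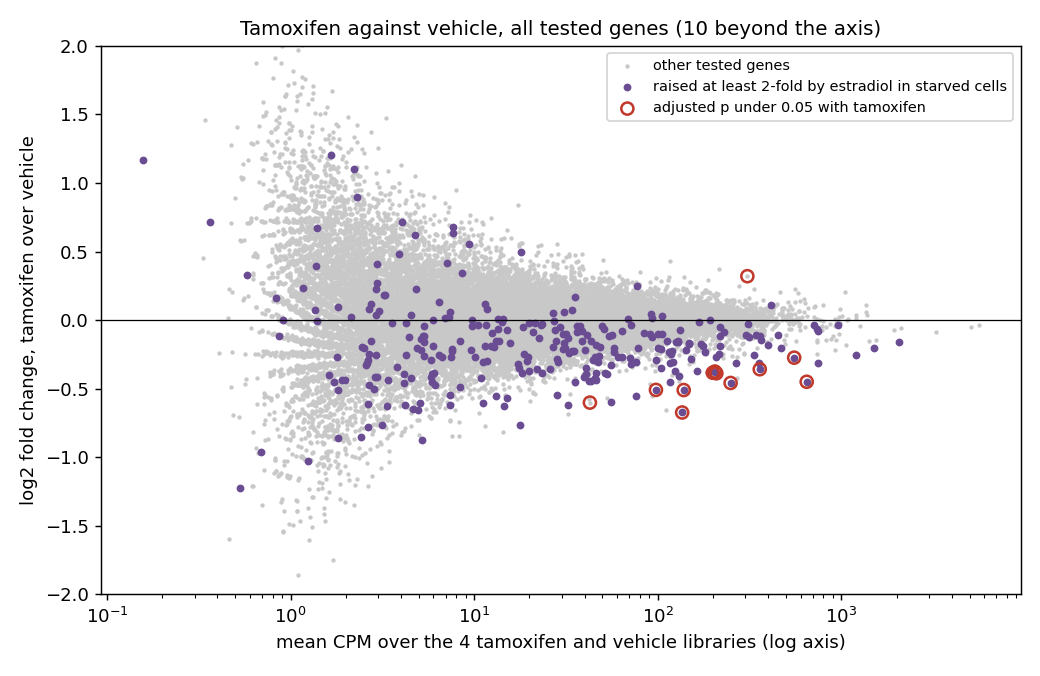
Log2 fold change with tamoxifen over vehicle (vertical axis) against the mean CPM of the 4 libraries (horizontal axis, log scale) for each tested gene, with 10 genes beyond the vertical axis. Purple points are the 289 genes that estradiol raised at least 2-fold in starved cells, red rings are the 12 genes past the threshold with tamoxifen, and 8 of the 11 lower rings hold a purple point.

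Among regulators of transcription, RUNX1 gave the smallest adjusted p. It encodes a Runt-domain factor that works with estrogen receptor alpha in luminal breast cells (ENSG00000159216, chromosome 21, 34787801 to 35049302, GRCh38). RUNX1 had 548 and 548 CPM in the tamoxifen libraries, against 761 and 735 CPM in the vehicle libraries. The groups were far apart relative to their own spread, and the difference was -0.45 ± 0.050 on the log2 scale (± standard error; Benjamini-Hochberg adjusted p = 0.000423 with the quasi-likelihood test of edgeR). MYBL1, a member of the MYB family of transcription factors (ENSG00000185697, chromosome 8, 66562175 to 66613218), had 90.8 and 119.6 CPM with tamoxifen, against 171 and 162 CPM with vehicle. Tamoxifen library 3 was the lowest of the 4, the tamoxifen libraries differed from each other more than the vehicle libraries did, and the groups did not overlap. At -0.67 ± 0.095, MYBL1 had the largest fall of the 11 genes (edgeR, Benjamini-Hochberg adjusted p = 0.00437). The value was -0.48 without tamoxifen library 3 and -0.63 without vehicle library 3, and each time the call was lost.

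Of the enzymes and membrane proteins, CA12 encodes a cell surface carbonic anhydrase (ENSG00000074410, chromosome 15, 63321378 to 63381846), and it had 316 and 315 CPM with tamoxifen, against 417 and 391 CPM with vehicle. Its difference was -0.36 ± 0.050 (edgeR, Benjamini-Hochberg adjusted p = 0.00437). B4GALT1, which adds galactose to glycoproteins and is part of lactose synthase in the mammary gland (ENSG00000086062, chromosome 9, 33104077 to 33185089), had 216 and 205 CPM with tamoxifen and 309.8 and 268 CPM with vehicle. The vehicle libraries of B4GALT1 differed from each other, and even the lower of them, library 4, lay above both tamoxifen libraries. Its difference was -0.46 ± 0.066 (edgeR, Benjamini-Hochberg adjusted p = 0.00437), and -0.35 without vehicle library 3, where the call was lost. IL6ST encodes gp130, the signalling subunit shared by receptors of the interleukin-6 family (ENSG00000134352, chromosome 5, 55935095 to 55994963). It had 168 and 189.6 CPM with tamoxifen and 227 and 236 CPM with vehicle, a difference of -0.38 ± 0.066 (edgeR, Benjamini-Hochberg adjusted p = 0.0363). No library of IL6ST with tamoxifen reached the level of either vehicle library.

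OLFM1, a secreted glycoprotein gene best known from neurons (ENSG00000130558, chromosome 9, 135075505 to 135121184), had 85.4 and 76.0 CPM with tamoxifen and 119.9 and 110.0 CPM with vehicle, a difference of -0.51 ± 0.090 (edgeR, Benjamini-Hochberg adjusted p = 0.0374). PRAG1, which encodes a pseudokinase that binds signalling proteins (ENSG00000275342, chromosome 8, 8317736 to 8386439), had 109 and 119.6 CPM with tamoxifen and 162 and 164 CPM with vehicle. The vehicle libraries of PRAG1 were nearly equal, both tamoxifen libraries lay well below them, and the difference was -0.51 ± 0.066 (edgeR, Benjamini-Hochberg adjusted p = 0.00244). FMN1, a formin that nucleates actin filaments (ENSG00000248905, chromosome 15, 32765544 to 33194714), showed the smallest fall of the 11, with 490.4 and 513 CPM with tamoxifen and 603 and 609.5 CPM with vehicle, or -0.27 ± 0.049 (edgeR, Benjamini-Hochberg adjusted p = 0.0399). FMN1 kept its call in 5 of 11 other ways of processing the counts, the fewest of the 12 genes, while RUNX1 and B4GALT1 kept theirs in 10. OLFM1 and ABCC5 kept theirs in 7, IL6ST, PTP4A2, RMDN2-AS1 and ENSG00000254024 in 8, and CA12, MYBL1 and PRAG1 in 9. OLFM1 and FMN1 lost their calls when any single vehicle or tamoxifen library was left out.

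PTP4A2, a prenylated phosphatase of the PRL family (ENSG00000184007, chromosome 1, 31906421 to 31938368), had 164 and 182 CPM with tamoxifen and 225 and 227 CPM with vehicle, a difference of -0.38 ± 0.065 (edgeR, Benjamini-Hochberg adjusted p = 0.0319). RMDN2-AS1 (ENSG00000235848, chromosome 2, 37950334 to 38036341) had 30.6 and 37.6 CPM with tamoxifen and 52.0 and 50.7 CPM with vehicle, or -0.60 ± 0.109 (edgeR, Benjamini-Hochberg adjusted p = 0.0427). ENSG00000254024 had 173 and 189 CPM with tamoxifen and 240.0 and 233 CPM with vehicle, or -0.39 ± 0.067 (edgeR, Benjamini-Hochberg adjusted p = 0.0363). In all 3 the vehicle libraries lay close together and above both tamoxifen libraries. RMDN2-AS1 overlaps RMDN2, and RUNX1, B4GALT1 and ABCC5 each overlap an antisense gene that bears their name. PRAG1 and PTP4A2 each overlap 1 other gene, CA12 overlaps 2 and FMN1 overlaps 7, whereas MYBL1, IL6ST and OLFM1 overlap 0. The strand setting of the counting was not given in the sources used here, so reads of such partners cannot be told apart.

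ABCC5 (ENSG00000114770, chromosome 3, 183919934 to 184017884) ran the other way. It had 342 and 342 CPM in the tamoxifen libraries, against 269 and 279 CPM in the vehicle libraries. The tamoxifen libraries agreed closely and both lay above the vehicle libraries, a difference of 0.32 ± 0.051 (edgeR, Benjamini-Hochberg adjusted p = 0.0164). Leaving out any single vehicle or tamoxifen library took the adjusted p over the threshold, with fold changes between 0.29 and 0.34. Of a list of 20 genes of tamoxifen metabolism and of efflux transporters, 8 were tested. ABCC5 was the 1 called, against 0.00428% of all tested genes called higher. Whether ABCC5 carries tamoxifen was not tested. The efflux pump genes ABCB1, ABCC1 and ABCG2 gave -0.18 ± 0.314, 0.10 ± 0.271 and -0.29 ± 0.351 and did not pass. Cytochrome genes that activate tamoxifen had few counts. CYP2D6 had 6 and 7 counts with tamoxifen and 2 and 3 with vehicle, and CYP3A4 had 3 and 0 with tamoxifen and 2 and 0 with vehicle, so both were left out by the filter.

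**Figure D2:**
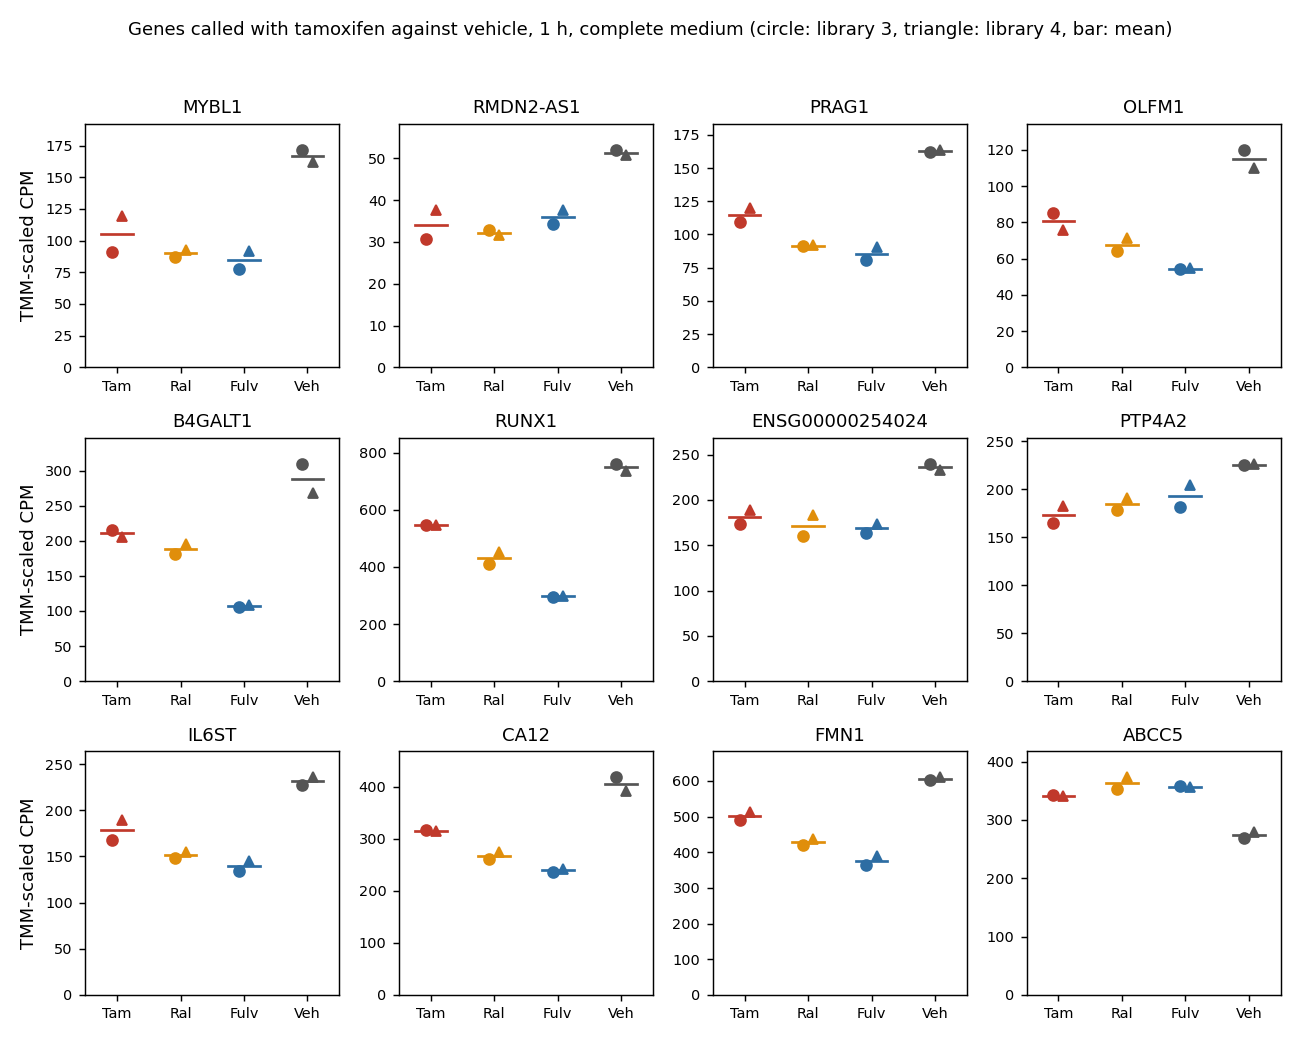
TMM-scaled CPM (vertical axes, from 0) of the 12 genes past the threshold, in cells given tamoxifen (Tam), raloxifene (Ral), fulvestrant (Fulv) or vehicle (Veh) for 1 h in complete medium. Circles are libraries 3, triangles libraries 4 and bars their means; in each panel both tamoxifen libraries lie on 1 side of both vehicle libraries, and ABCC5 is the panel in which they lie above.

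RefSeq promoters (GRCh38.p14, from 250 bases before to 50 after a gene's start) were read for the genes that fell, and 8 of the 11 matched an entry. The 4 of these 8 that fell most are shown with ABCC5 for contrast, as the stretches in which estrogen response elements were looked for. Capitals mark GGGCGG, the GC box bound by SP1-type factors, or TATAAA, the TATA box, on either strand.
RMDN2-AS1 (chr2:38036292-38036591, minus strand): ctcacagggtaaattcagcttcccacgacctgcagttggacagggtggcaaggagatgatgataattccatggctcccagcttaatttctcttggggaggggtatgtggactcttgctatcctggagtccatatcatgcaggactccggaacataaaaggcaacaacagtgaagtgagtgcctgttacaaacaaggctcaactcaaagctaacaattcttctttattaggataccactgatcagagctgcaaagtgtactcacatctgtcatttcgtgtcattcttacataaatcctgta
OLFM1 (chr9:135075255-135075554, plus strand): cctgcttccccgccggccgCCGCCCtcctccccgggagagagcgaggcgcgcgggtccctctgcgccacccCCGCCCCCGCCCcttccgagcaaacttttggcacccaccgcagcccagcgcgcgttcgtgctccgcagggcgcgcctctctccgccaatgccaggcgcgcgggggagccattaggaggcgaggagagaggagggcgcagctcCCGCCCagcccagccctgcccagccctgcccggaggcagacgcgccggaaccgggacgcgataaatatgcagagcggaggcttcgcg
B4GALT1 (chr9:33167287-33167586, minus strand): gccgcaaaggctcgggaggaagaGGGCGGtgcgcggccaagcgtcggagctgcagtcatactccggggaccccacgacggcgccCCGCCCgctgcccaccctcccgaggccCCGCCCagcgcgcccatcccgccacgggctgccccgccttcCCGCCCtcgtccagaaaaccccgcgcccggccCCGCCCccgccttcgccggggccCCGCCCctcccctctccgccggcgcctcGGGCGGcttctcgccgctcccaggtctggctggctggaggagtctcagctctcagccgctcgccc
RUNX1 (chr21:34888650-34888949, minus strand): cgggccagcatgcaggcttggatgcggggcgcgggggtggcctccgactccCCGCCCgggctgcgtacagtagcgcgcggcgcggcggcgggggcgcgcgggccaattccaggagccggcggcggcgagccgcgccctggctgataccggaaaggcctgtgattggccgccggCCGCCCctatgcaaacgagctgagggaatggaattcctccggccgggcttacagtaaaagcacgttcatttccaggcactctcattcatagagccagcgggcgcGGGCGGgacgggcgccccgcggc
ABCC5 (chr3:184017835-184018134, minus strand): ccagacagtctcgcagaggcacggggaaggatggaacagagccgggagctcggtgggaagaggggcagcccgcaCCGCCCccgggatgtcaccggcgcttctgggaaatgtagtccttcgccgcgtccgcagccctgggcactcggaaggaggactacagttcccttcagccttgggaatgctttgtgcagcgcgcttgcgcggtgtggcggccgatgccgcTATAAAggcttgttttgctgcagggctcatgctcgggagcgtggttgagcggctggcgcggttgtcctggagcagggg
The windows of B4GALT1 and RUNX1 lie inside the span of the gene, at 1 of its starts, and which start was in use is not resolved by counts per gene. None of the 8 promoters holds the palindromic element, GGTCA and TGACC set 3 bases apart, its half-site AGGTCA, the AP-1 site TGANTCA or the forkhead site TGTTTAC, searched on both strands. Of the 13723 promoters of tested genes, 0.0583% hold the palindrome, 10.4% the half-site (which may lie within a palindrome), 5.05% the AP-1 site and 2.45% the forkhead site. GGGCGG was found in 7 of the 8, RMDN2-AS1 being the exception, against 64.9% of the promoters of tested genes. None of the 8 holds TATAAA, whereas the ABCC5 window does, as do 6.59% of the promoters of tested genes. These matches describe letters in a short window and say nothing of binding there or elsewhere.

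Genes that estradiol raises in starved T47D cells were set beside the tamoxifen values, since the estradiol and starved vehicle libraries were used in neither arm of the tamoxifen comparison. Estradiol raised 1177 genes (5.04% of those tested), 289 of them at least 2-fold (1.24%). The 11 genes lower with tamoxifen were all among the 1177, of which they made up 0.935%, and 8 of them were among the 289, of which they made up 2.77%. FMN1 had 828 and 839.6 CPM with estradiol, against 188 and 181 CPM in starved vehicle. OLFM1 had 95.5 and 81.4 CPM with estradiol and 17.5 and 13.6 CPM in starved vehicle. The other 3 were PTP4A2, RMDN2-AS1 and ENSG00000254024, which estradiol raised by 0.46, 0.65 and 0.58 on the log2 scale. ABCC5 had 213 and 205 CPM with estradiol and 264 and 265 CPM in starved vehicle, and estradiol lowered it by -0.34 ± 0.052 (edgeR, Benjamini-Hochberg adjusted p = 0.000117). The count of 8 became 5 without either starved vehicle library, 0 without complete vehicle library 3, 5 without complete vehicle library 4 and 2 without tamoxifen library 3.

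Over all tested genes, called or not, those that estradiol raised at least 2-fold had lower values with tamoxifen, while among them the size of the difference hardly followed the size of the estradiol response. The 58 genes that estradiol raised at least 4-fold had a median log2 fold change with tamoxifen of -0.23, the 231 raised between 2-fold and 4-fold -0.19, and the 888 raised less than 2-fold -0.04. The 21324 genes that estradiol did not move past the threshold had a median of 0.01, the 874 that it lowered (3.74% of those tested) 0.03, and the 40 of these lowered at least 2-fold 0.12. Of the 289 genes raised at least 2-fold, 82.0% had a negative fold change with tamoxifen, against 48.8% of all tested genes. The share was 77.6% in those raised at least 4-fold and 83.1% in those raised between 2-fold and 4-fold. Both tamoxifen libraries lay below both vehicle libraries for 51.9% of the 289, against 17.4% of all tested genes. Among the 72 of them with a mean of at least 500 counts, whose values are the most precise, 67 were negative and the median was -0.18, against a median of 0.00 for all 3468 genes at that level. Among those of the 289 with a RefSeq length, medians were -0.21 for 101 genes under 20 kb, -0.22 for 81 genes of 20 to 100 kb and -0.12 for 43 longer genes. The rest of the 289 had no RefSeq length and are in none of these classes. Across all tested genes the tamoxifen and estradiol fold changes correlated with r = -0.10 (n = 23375 genes), with r = -0.21 over the 11598 genes whose mean reached 100 counts, and with r = -0.08 over the 289. Genes are not independent replicates, and all share the same 8 libraries.

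**Figure D3:**
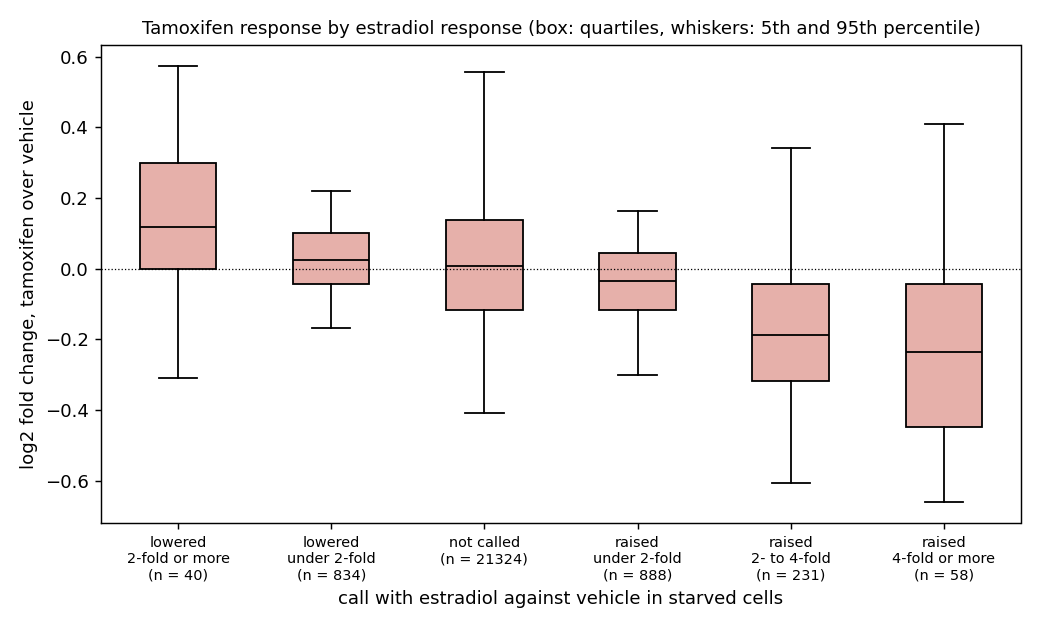
Log2 fold change with tamoxifen over vehicle (vertical axis) for genes grouped by their response to estradiol in starved cells (horizontal axis, from lowered to raised). Boxes give quartiles and median and whiskers the 5th and 95th percentiles, and the medians run from 0.12 in the 40 genes lowered at least 2-fold to -0.23 in the 58 raised at least 4-fold.

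Classical estrogen receptor targets mostly had small negative fold changes, few of which passed the test. Of 50 estrogen-induced genes, chosen with earlier results of these data known, 47 were tested. With tamoxifen 4 were lower (CA12, MYBL1, B4GALT1 and OLFM1) and 0 higher, against 0.0471% and 0.00428% of all tested genes. DESeq2 gave 8 lower and the replicate block 17. The median log2 fold change of the 47 was -0.25 and 42 were negative, against a median of 0.005 and 48.8% negative over all tested genes. For 34 of the 47 both tamoxifen libraries lay below both vehicle libraries, against 17.4% of all tested genes. Without complete vehicle library 3 the list held 0 lower genes, and without tamoxifen library 3 it held 1. GREB1, a receptor cofactor and classical target, had 1110.1 and 1088 CPM with tamoxifen and 1354 and 1266 CPM with vehicle. Its groups did not overlap, and its difference of -0.25 ± 0.052 (95% interval -0.36 to -0.15) missed the threshold (edgeR, Benjamini-Hochberg adjusted p = 0.0975), though not in DESeq2. RARA, a retinoic acid receptor gene, had 334 and 304 CPM with tamoxifen and 419 and 375 CPM with vehicle, or -0.32 ± 0.061 (edgeR, Benjamini-Hochberg adjusted p = 0.075, and past the threshold in DESeq2). NRIP1, a corepressor of nuclear receptors, gave -0.31 ± 0.062, with 219 and 257 CPM with tamoxifen and 294 and 295 CPM with vehicle. For both genes each tamoxifen library lay below each vehicle library.

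PGR, the progesterone receptor gene, had 1334 and 1464 CPM with tamoxifen and 1597 and 1625 CPM with vehicle, a difference of -0.20 ± 0.058 (edgeR, Benjamini-Hochberg adjusted p = 0.412). MYC, a growth-promoting transcription factor gene, had 102 and 114 CPM with tamoxifen and 142 and 124 CPM with vehicle, or -0.31 ± 0.090 (edgeR, Benjamini-Hochberg adjusted p = 0.466). Their groups did not overlap. In CCND1, the cyclin D1 gene, they did, with 125 and 111 CPM with tamoxifen and 138 and 121 CPM with vehicle, and the interval of its difference ran over -0.36 to 0.08. PDZK1, a scaffold protein gene, and XBP1, a factor of the secretory stress response, gave -0.28 ± 0.103 and -0.25 ± 0.091 and did not pass. With the replicate block GREB1, RARA, NRIP1, PGR, MYC and XBP1 passed against vehicle, and PDZK1, CCND1 and ESR1 did not. ESR1, which encodes the receptor itself, had 1871 and 1917 CPM with tamoxifen and 1999 and 1993 CPM with vehicle, and its interval was -0.16 to 0.01. TFF1, often used as a target gene in such cells, had 8 and 5 counts with tamoxifen and 6 and 7 with vehicle, too few to be tested.

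Of the other gene groups, IL6ST was the 1 member called among 21 tested growth factors and receptors, against 0.0471% of all tested genes called lower. The median log2 fold change of the 21 was -0.07. The 31 tested AP-1 and immediate-early genes, which answer growth signals within minutes, held 0 called genes in edgeR and a median of -0.18, with 25 negative. Of all tested genes 48.8% were negative. FOS gave -0.20, JUN -0.22, EGR1 -0.27 and KLF6 -0.35, none past the threshold. The 20 estrogen-repressed genes held 0 called genes in edgeR and a median of 0.05, with 14 positive and 6 negative. They ran from -0.33 to 0.46, with BLNK, a signalling adaptor gene, at 0.28 ± 0.065. Both tamoxifen libraries lay above both vehicle libraries for 4 of the 20 and below them for 4. Nuclear receptors and their cofactors (35 tested, median 0.04) and luminal genes (20 tested, median -0.11) held 0 called genes in edgeR, as did genes of ribosome biogenesis (34 tested, median 0.06). The same held for G1/S genes (31 tested, median -0.03), G2/M genes (23 tested, median -0.04), the unfolded protein response (22 tested, median 0.01), the heat shock response (15 tested, median 0.02) and p53 targets (16 tested, median -0.09). It also held for cholesterol synthesis with the antiestrogen binding site (24 tested, median -0.04), Notch genes (14 tested, median -0.04) and steroid targets of other receptors (15 tested, median -0.10). Targets of the aryl hydrocarbon receptor (8 tested, median -0.04), interferon-stimulated genes (20 tested, median 0.05), the BCL2 family (10 tested, median 0.08) and housekeeping genes (16 tested, median 0.01) also held none in edgeR. Of basal and mesenchymal genes 11 were tested with a median of -0.03, and of stromal, endothelial and blood genes 5 with a median of 0.30, none called. At an unadjusted p under 0.05 edgeR gave 5 lower and 0 higher AP-1 and immediate-early genes, and 0 and 6 nuclear receptor and cofactor genes. Luminal genes gave 4 and 0, Notch genes 4 and 0, and cholesterol genes 3 and 4. Over all 23375 tested genes there were 799 lower and 731 higher at that level. Each of the other lists with no call had 0 to 3 in either direction. DESeq2 called 0 in all of these lists but 1, the targets of the aryl hydrocarbon receptor, where TIPARP, a poly-ADP-ribosyltransferase family gene, was lower; in edgeR it gave -0.55 ± 0.115 and did not pass (edgeR, Benjamini-Hochberg adjusted p = 0.118).

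Against fulvestrant, at the same dose, time and medium, mostly estrogen-responsive genes were at higher levels with tamoxifen. With tamoxifen 106 genes were higher and 2 were lower than with fulvestrant (0.453% and 0.00856% of those tested), and 14 of the 106 differed at least 2-fold. Of the 106, 95 were lower in starved than in complete vehicle, as were 2260 of the 23375 tested genes. Of the same 106, 104 were genes that estradiol raised in starved cells (8.84% of the 1177), 71 of them at least 2-fold (24.6% of the 289). The exceptions were GASK1A, which encodes a Golgi-associated kinase family member, and ENSG00000230490, at 0.34 and 0.33; both are named after their values were seen. Without fulvestrant library 3 there were 47 higher genes and without tamoxifen library 4 there were 67. Leaving out fulvestrant library 4 gave 85 and leaving out tamoxifen library 3 gave 78.

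By the rule for named genes, SPINK4, a secreted protease inhibitor gene, differed most. SPINK4 had 39.0 and 39.3 CPM with tamoxifen, against 13.9 and 13.3 CPM with fulvestrant, and the vehicle libraries had 50.3 and 56.4 CPM. Tamoxifen exceeded fulvestrant by 1.52 ± 0.137 (edgeR, Benjamini-Hochberg adjusted p = 1.5e-06). CXCL12, a chemokine gene, had 86.3 and 97.7 CPM with tamoxifen and 30.04 and 34.3 CPM with fulvestrant, or 1.51 ± 0.107 (edgeR, Benjamini-Hochberg adjusted p = 5.1e-08). IGFBP4, whose product binds insulin-like growth factors, had 98.9 and 100.0 CPM with tamoxifen and 37.8 and 35.8 CPM with fulvestrant, or 1.43 ± 0.101 (edgeR, Benjamini-Hochberg adjusted p = 5.1e-08). In all 3 genes the levels with tamoxifen lay between those with fulvestrant and those with vehicle, with no overlap between any of the groups. PDZK1 (1.41 ± 0.123), the prostaglandin E synthase gene PTGES (1.35 ± 0.131) and the serpin gene SERPINA10 (1.23 ± 0.162) came next. They were followed by the non-coding gene LINC00160 (1.21 ± 0.211), the calcitonin receptor gene CALCR (1.08 ± 0.148), the pseudogene CYP2T1P (1.04 ± 0.201) and NECAB2 (1.01 ± 0.207). LINC00160, CYP2T1P and NECAB2 lost their calls in at least 1 comparison that left out a library, for example NECAB2 at 0.73 without tamoxifen library 3. SERPINA10 with tamoxifen, at 43.4 and 31.9 CPM, overlapped vehicle, at 38.5 and 28.1 CPM.

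Classical targets differed between these antagonists too: of the 47 estrogen-induced genes, 21 were higher with tamoxifen than with fulvestrant, 0 were lower, and the median difference was 0.46. Of all tested genes 0.453% were higher and 0.00856% lower. GREB1 had 1110.1 and 1088 CPM with tamoxifen and 586 and 591 CPM with fulvestrant, a difference of 0.90 ± 0.053 (edgeR, Benjamini-Hochberg adjusted p = 3.2e-09). MYC exceeded its fulvestrant level by 0.83 ± 0.099, PGR by 0.42 ± 0.058, RARA by 0.51 ± 0.063 and NRIP1 by 0.46 ± 0.065, all past the threshold. CCND1, at 0.46 ± 0.110, and ESR1, at 0.16 ± 0.040, were not (edgeR, Benjamini-Hochberg adjusted p = 0.0881 and 0.101). The lower genes were TM4SF18-AS1, with 116 and 119.8 CPM with tamoxifen and 159.6 and 151 CPM with fulvestrant, and IFNGR1, an interferon gamma receptor gene, with 8.95 and 10.1 CPM with tamoxifen and 14.7 and 16.4 CPM with fulvestrant. For both the groups did not overlap, and the call of IFNGR1 was lost in DESeq2 and without any single library of either group.

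**Figure D4:**
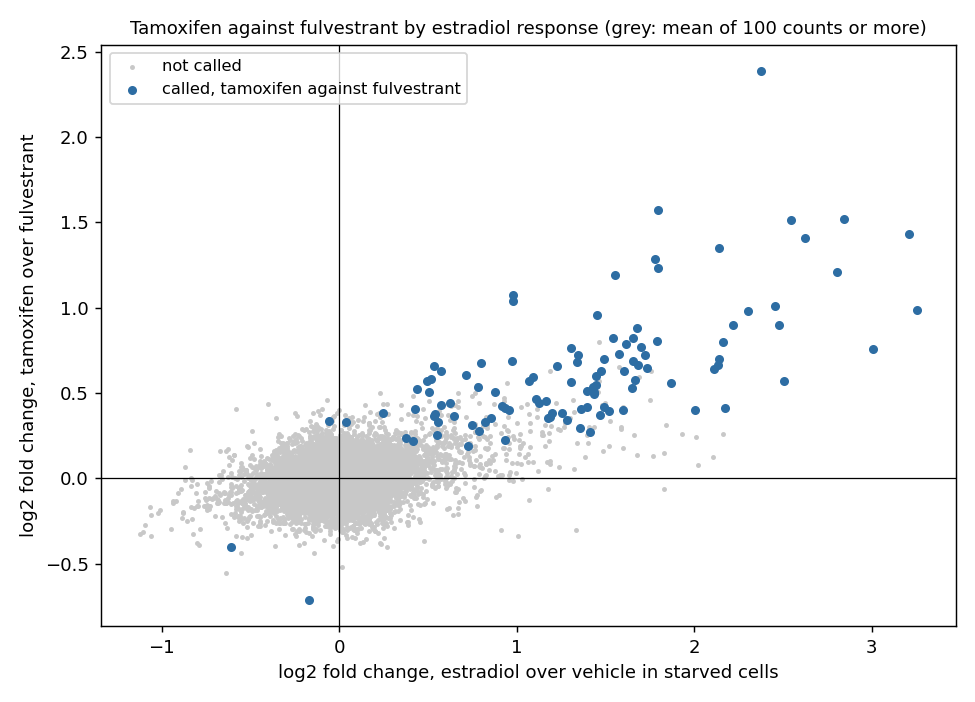
Log2 fold change with tamoxifen over fulvestrant (vertical axis) against that with estradiol over vehicle in starved cells (horizontal axis), which share no library. Grey points are genes with a mean of at least 100 counts that were not called and blue points the 108 called genes; 104 of the 106 called higher with tamoxifen were raised by estradiol.

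Among the 11 genes that tamoxifen lowered against vehicle, 7 were also higher than with fulvestrant by the direct test. Of all tested genes 0.453% were higher. The test against fulvestrant reuses the tamoxifen libraries of the test against vehicle. The 11 genes were picked for low values in those libraries, so their levels with tamoxifen may read too low beside the other drugs. B4GALT1 had 216 and 205 CPM with tamoxifen and 105 and 108 CPM with fulvestrant, a difference of 0.98 ± 0.071, and RUNX1 gave 0.88 ± 0.052. The others were OLFM1 (0.57 ± 0.099), PRAG1 (0.42 ± 0.071), FMN1 (0.41 ± 0.050), CA12 (0.40 ± 0.052) and IL6ST (0.35 ± 0.068). Of the rest, the 95% interval of the difference between tamoxifen and fulvestrant was 0.09 to 0.52 for MYBL1, -0.32 to 0.16 for RMDN2-AS1, -0.29 to -0.02 for PTP4A2 and -0.04 to 0.25 for ENSG00000254024. For ABCC5 it was -0.17 to 0.04. PTP4A2 had 164 and 182 CPM with tamoxifen, 178 and 191 CPM with raloxifene and 182 and 204 CPM with fulvestrant, so that its level with tamoxifen was the lowest by mean and the libraries overlapped.

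Each drug was also compared with the same 2 vehicle libraries, so these counts share their controls and are set side by side only. Tamoxifen gave 11 lower and 1 higher gene, raloxifene 112 and 21 (0.479% and 0.0898%), and fulvestrant 245 and 25 (1.05% and 0.107%). For the 289 genes that estradiol raised at least 2-fold, the median log2 fold change against vehicle was -0.20 with tamoxifen, -0.34 with raloxifene and -0.57 with fulvestrant. GREB1 stood at -0.25 ± 0.052 with tamoxifen, -0.47 ± 0.052 with raloxifene and -1.15 ± 0.053 with fulvestrant. IGFBP4 stood at -0.45 ± 0.084 with tamoxifen, -0.83 ± 0.090 with raloxifene and -1.88 ± 0.099 with fulvestrant. For ABCC5 the values were 0.32 ± 0.051, 0.40 ± 0.052 and 0.38 ± 0.051 in the same order of drugs.

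**Figure D5:**
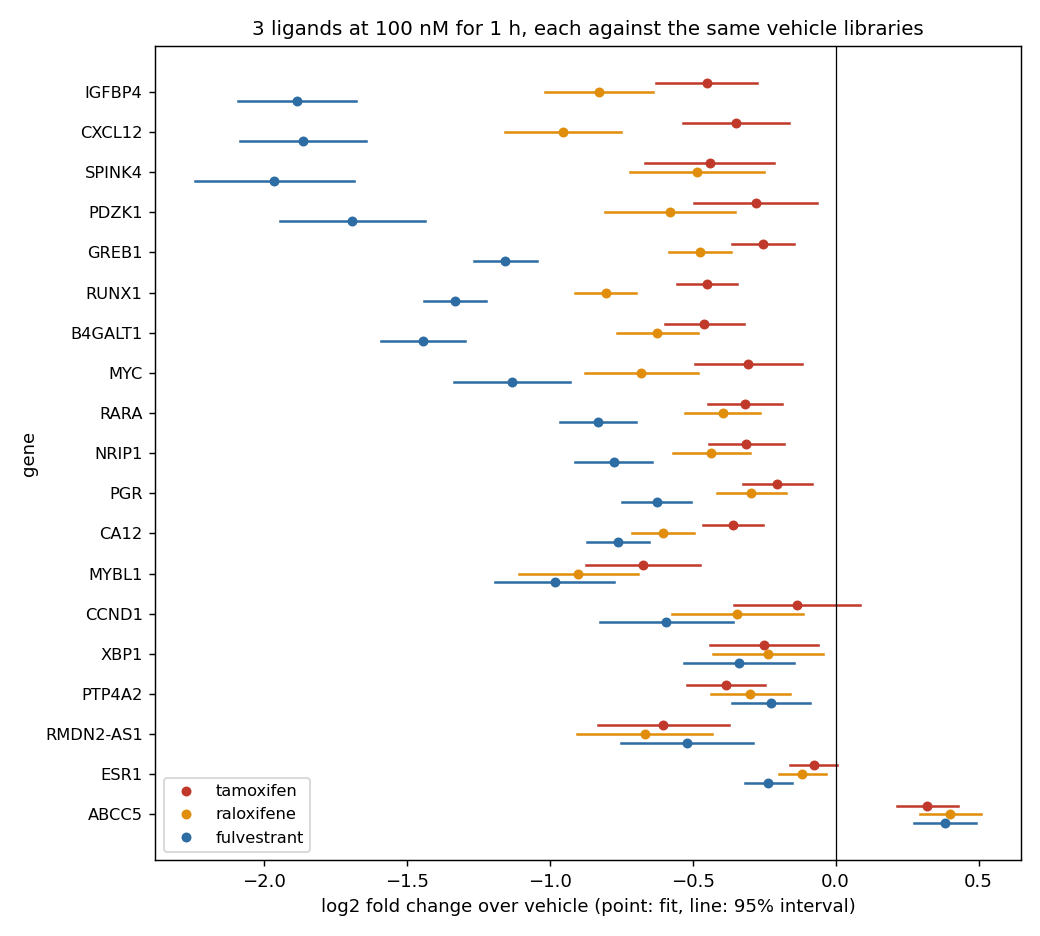
Log2 fold change over vehicle (horizontal axis; points are fitted values, lines 95% intervals) of 19 genes with tamoxifen, raloxifene and fulvestrant, each against the same vehicle libraries. For IGFBP4 the values are -0.45, -0.83 and -1.88, and for ABCC5, the 1 gene right of 0, the intervals of the 3 drugs overlap.

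Tamoxifen and raloxifene, the selective modulators, differed past the threshold at 1 gene in the main edgeR fit. RUNX1 had 548 and 548 CPM with tamoxifen, against 410.0 and 451 CPM with raloxifene, and was higher with tamoxifen by 0.35 ± 0.051 (edgeR, Benjamini-Hochberg adjusted p = 0.0241; 0.00428% of tested genes). With tamoxifen 0 genes were lower than with raloxifene in the main edgeR fit and in DESeq2. At an unadjusted p under 0.05 the main edgeR fit gave 556 higher and 505 lower genes. The replicate block gave 26 higher and 9 lower genes at an adjusted p under 0.05. The call of RUNX1 was lost without tamoxifen library 3 and without tamoxifen library 4, at the same fold change. It was also lost, at 0.35, when only the 2 groups compared were fitted (edgeR, Benjamini-Hochberg adjusted p = 0.9999). The call thus rested on the spread shared with the other groups. Raloxifene library 4 had 3682311 counts, the fewest of the series, and raloxifene library 3 the most. Without raloxifene library 3 there were 2 higher and 162 lower genes, and without raloxifene library 4 there were 4 higher and 0 lower. CXCL12 had 86.3 and 97.7 CPM with tamoxifen and 54.2 and 70.2 CPM with raloxifene, a difference of 0.61 ± 0.098 that did not pass (edgeR, Benjamini-Hochberg adjusted p = 0.063). GREB1 differed by 0.22 (95% interval 0.11 to 0.33) and PGR by 0.09 (-0.03 to 0.21), neither past the threshold. The 289 genes raised at least 2-fold by estradiol had a median difference of 0.15 between tamoxifen and raloxifene, against 0.00 for all tested genes, and 46.0% of them had both tamoxifen libraries above both raloxifene libraries, against 15.4% of all tested genes.

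Some of the 106 genes that were higher with tamoxifen than with fulvestrant lay next to each other. Of the 95 with a RefSeq position, 35 had another within 250 kb, start to start, in 15 groups. The same share was not worked out for other tested genes, so whether 35 of 95 is many was not tested. The 35 include the overlapping gene models named below. The 2 largest groups held 4 genes each. On chromosome 19 these were EGLN2, which encodes an oxygen-sensing prolyl hydroxylase, RAB4B-EGLN2, the pseudogene CYP2T1P and ITPKC, an inositol trisphosphate kinase gene. On chromosome 21 RUNX1 neighbours CLIC6, a chloride channel family gene, and the non-coding genes LINC00160 and LINC01426. CLIC6 had 20.9 and 25.5 CPM with tamoxifen and 13.4 and 13.7 CPM with fulvestrant (0.77 ± 0.140), and LINC01426 had 5.69 and 6.04 CPM with tamoxifen and 1.62 and 3.24 CPM with fulvestrant (1.29 ± 0.285). On chromosome 17 RARA lay beside IGFBP4, on chromosome 9 B4GALT1 beside SPINK4, and on chromosome 14 SERPINA10 beside SERPINA6, the gene of corticosteroid-binding globulin (0.96 ± 0.104). On chromosome 8 MYC lay beside PVT1, and on chromosome 15 CA12 beside LINC02568. Several other pairs are overlapping or read-through gene models, such as SIAH2 with SIAH2-AS1, EGLN2 with RAB4B-EGLN2 and OSGIN1 with NECAB2, whose reads the counting may share. Of the 11 genes that tamoxifen lowered against vehicle, 10 had a position, and no pair of them lay within that distance of each other.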

How the data were processed

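PRO-seq libraries of T47D cells were grouped by the series' labels, 2 per group, 12 in all. Their descriptions number the libraries of a group 3 and 4, which are the numbers used here. The authors deposited whole-number counts per Ensembl gene ID, not normalized. The tools and build in the submitters' processing notes are cutadapt 1.8.1, Bowtie2 2.4.4, SAMtools 1.9 and hg38. The sources used here do not give the counting tool, the annotation, the counted part of each gene or the strand setting. Library totals are given with the results. Of 60605 IDs, 142 without a symbol (0.281% of counts) were kept under their ID, and 1195 that shared a symbol with a more abundant ID (0.0741% of counts) were left out, which left 59410 genes.

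Genes were filtered with edgeR's filterByExpr, scaled by TMM and fitted with edgeR 4.0.16 (R 4.3.3), in a quasi-likelihood model with 6 groups over all 12 libraries, so that all groups share 1 estimate of the spread. Each comparison was tested with glmQLFTest and Benjamini-Hochberg adjustment over 23375 genes, and adjusted p under 0.05 was called. Fold changes are log2, tamoxifen over its comparator, ± standard error, and CPM is TMM-scaled. The fit was tested on simulated counts. Alternatives were RLE scaling, no scaling factor, no filter, a stricter filter (20 counts in 2 libraries), DESeq2 1.42.0, fitting only the groups compared, a replicate block and leaving out each library.

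Named genes were called genes whose mean count reached 50 and whose groups did not overlap (up to 15 per direction against vehicle, 10 against another drug), up to 4 members called per gene list, and 10 fixed targets of the receptor. Other genes given as examples were chosen after their values were seen. Members and the 22 gene lists were chosen with earlier results of these data known. Gene positions and promoters came from RefSeq (GRCh38.p14), matched by symbol, with a position for 18494 of the tested genes.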

Additional observations from a re-analysis of the deposited data

How the results depend on the processing

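No fold change of a named gene changed sign under the alternatives run, whereas the balance of calls against raloxifene, 1 higher and 0 lower, turned to mostly lower without the low-count filter and without raloxifene library 3. Of the fold changes of named genes recomputed under the alternatives, 182 against vehicle, 114 against fulvestrant and 8 against raloxifene stayed on their side of the threshold, 34, 18 and 3 lost it, and 15 against vehicle passed it. Without the low-count filter there were 69 lower and 24 higher genes against vehicle, 8 and 162 against fulvestrant, and 44 and 21 against raloxifene; 34 of the estradiol-raised genes and 13 of the estrogen-induced list were then lower with tamoxifen. DESeq2 gave 20 lower genes against vehicle, 1 lower and 82 higher against fulvestrant, 15 estradiol-raised genes and 8 of the list. Fitting only the groups compared gave 20 lower against vehicle, 1 lower and 65 higher against fulvestrant and 0 higher against raloxifene. A stricter filter gave 4 lower against fulvestrant, no scaling factor gave 6, and no fold threshold gave 11 estradiol-raised genes in place of 8. The cause of these shifts was not tested.

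Leaving out 1 library at a time gave 0 to 13 lower and 0 higher genes against vehicle, 1 to 2 lower and 47 to 85 higher against fulvestrant, and 0 to 162 lower and 0 to 4 higher against raloxifene. It gave 0 to 10 estradiol-raised genes and 0 to 4 of the list; a lone library was taken to vary like the other groups. With a replicate block there were 114 lower and 58 higher genes against vehicle, 23 and 219 against fulvestrant, and 9 and 26 against raloxifene, with 50 estradiol-raised genes and 17 of the list; GREB1, RARA, NRIP1, PGR, MYC and XBP1 then passed against vehicle. Deviations of same-numbered libraries correlated with r = 0.124 between tamoxifen and vehicle, 0.271 with fulvestrant and 0.362 with raloxifene, and with r = 0.0929 between estradiol and starved vehicle. With 2 numbers per group and no label that ties them to a batch, this was not taken as pairing. Median standard errors of the log2 fold change were 0.059 for genes whose mean count reached 1000 and 0.103 for those between 100 and 1000, so differences of the size seen here were detectable mainly in abundant genes.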
